A study of Mus musculus with 13 samples.

Results

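The oxidative phosphorylation genes of both genomes were read out in isolated mouse glomeruli, as listed symbols for subunits of respiratory complexes I to V. The pattern took symbols that begin with Nduf followed by a, b, c, s or v and a digit, with Uqcr, with Cox4 to Cox8 or with Atp5, the 4 Sdh genes, and the protein-coding genes of mitochondrial DNA. It matched 116 symbols, and 97 of them had at least 1 TPM (a level scaled by transcript length and by the library's total) in at least 4 libraries. Of these 97 members, among 14322 genes tested, 13 are encoded by mitochondrial DNA and 84 by nuclear chromosomes. The 84 include 3 that GENCODE lists as processed pseudogenes, Ndufa12-ps and Ndufb4c, counted with complex I, and Cox7c-ps1, counted with complex IV. The 19 symbols under the filter are mostly pseudogenes and isoforms of other tissues, such as Cox6a2 and Cox8b of striated muscle and Cox7b2 and Cox8c of testis, and none of them passed 9.79 TPM in any library.

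Electrons from NADH enter the chain at complex I and those from succinate at complex II, pass through complex III to oxygen at complex IV, and the proton gradient they build drives the ATP synthase, complex V. Complex II is built from nuclear genes alone, whereas the other complexes combine a few subunits made from mitochondrial DNA with many nuclear ones. The mitochondrial genes are cut from long shared precursor RNAs, so their levels are not independent of each other. In the kidney, the proximal tubule is especially rich in mitochondria, and glomerular cells hold far fewer.

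Male wildtype Balb/c mice received an intraperitoneal injection of 2.0 mg rabbit IgG. Control mice received preimmune IgG (n = 5, collected over both days in 1 group), and mice with membranous nephropathy (MN) received IgG against the podocyte protein THSD7A and were collected at day 1 (n = 4) or day 5 (n = 4). Glomeruli were pulled out on magnetic beads after perfusion and tissue digestion, and RNA of each of the 13 samples was sequenced in bulk. Both days were compared with the same 5 control samples, so these comparisons share them. The comparison asks whether the antibody moved the transcripts of the respiratory chain early (day 1), late (day 5) or between the days, and whether the 2 genomes moved alike. In bulk samples, fewer cells of a type and less RNA per cell cannot be told apart.

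All 13 libraries carried podocyte and endothelial markers at high levels, with summed podocyte markers (10 genes) between 7770 and 10463 TPM and summed endothelial markers (9 genes) between 8816 and 13138 TPM. Tubular RNA was present too and differed between libraries. Summed TPM of 22 proximal tubule markers was 3996, 3048, 5147, 5052 and 11191 in control replicates 1 to 5, 9742, 9683, 5593 and 8709 at day 1, and 4320, 4053, 4860 and 4569 at day 5. Control replicate 5 stood apart from the other control samples, and all 4 day 1 samples lay above the other 4 control samples and above all day 5 samples. Kap, an androgen-driven transcript of the proximal tubule, held most of this sum, at 3672 ± 2106 TPM in control (SD, n = 5), 5341 ± 1413 at day 1 (SD, n = 4) and 2715 ± 208 at day 5 (SD, n = 4). The depth of these libraries is unknown, because TPM keeps no read counts.

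Several mitochondrial genes have near-identical copies in the nuclear genome that the transcript index lists as separate genes, and some of these copies were listed at levels like those of the mitochondrial genes themselves. A stretch of mitochondrial DNA inserted in chromosome 1 (chr1:24650616-24655278, minus strand, GRCm39) holds copies of 7 of the 13 genes. The 3 pairs below show how little separates a mitochondrial transcript from its copy. The 60 bases from the start of mt-Co2 (chrM:7013-7072, plus strand), which encodes a catalytic subunit of complex IV, are the same letters as the start of Gm28661 (chr1:24654587-24654646), and both genes were the same over all 681 aligned bases.
mt-Co2: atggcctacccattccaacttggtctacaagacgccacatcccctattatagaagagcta
Gm28661: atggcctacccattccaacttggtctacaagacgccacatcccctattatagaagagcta
Gm29216 (shown, chr1:24655209-24655269) covers part of mt-Co1 (shown, chrM:6390-6450), the other catalytic subunit of complex IV. Over 483 compared bases the only difference was A1066T, counted from base 1 of mt-Co1 and marked by the capital.
mt-Co1: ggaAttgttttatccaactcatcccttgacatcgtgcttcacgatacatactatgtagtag
Gm29216: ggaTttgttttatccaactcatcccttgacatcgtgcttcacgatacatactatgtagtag
Gm28438 (shown, chr1:24652140-24652200) and mt-Nd3 (shown, chrM:9459-9519), a membrane subunit of complex I, differed at T3C alone over 345 compared bases.
mt-Nd3: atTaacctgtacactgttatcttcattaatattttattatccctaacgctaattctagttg
Gm28438: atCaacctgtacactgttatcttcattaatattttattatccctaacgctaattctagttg

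Of the 7 copies, 5 carried signal in every library and 2, Gm10222 (of mt-Nd4l) and Gm28439 (of mt-Nd4), were listed at 0. The share of TPM assigned to the copy ran from 51.1% to 78.2% over the 13 libraries for Gm28661 of mt-Co2 and from 49.8% to 61.8% for Gm28438 of mt-Nd3. It ran from 22.3% to 38.2% for Gm28437 of mt-Co3, from 23.8% to 29.4% for Gm29216 of mt-Co1 after weighting by transcript length, and from 6.37% to 22.2% for Gm10925 of mt-Atp6. Without that weighting, the copies together held 21915 to 37012 TPM in control, 29247 to 32708 at day 1 and 23350 to 28399 at day 5. Reads from identical stretches cannot be told apart by sequence, so the value of each of these 5 mitochondrial genes rests on how the quantification split them.

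The split was visible in mt-Co2. Its TPM was 2315, 4150, 4180, 3890 and 4632 in control, 4369, 4105, 5159 and 6016 at day 1, and 3450, 3802, 5597 and 4239 at day 5. Control replicate 1 was lowest of all libraries for mt-Co2, while Gm28661 there stood at 8304 TPM, within the control range of 5821 to 9508. Summed with the copy, mt-Co2 was 10619, 9970, 11825, 13399 and 13913 TPM in control, 13937, 13282, 12599 and 14577 at day 1, and 11259, 11696, 11449 and 12317 at day 5. The SD between libraries within groups, pooled over the 3 groups on log2 of the deposited TPM, was 0.33 for mt-Co2 alone and 0.14 for the sum. For the other 4 genes with a copy that carried signal, it was 0.12 to 0.16 alone and 0.14 to 0.15 summed. In the fit, the day 1 log2 fold change of mt-Co2 was 0.43 ± 0.19 (SE) alone and 0.24 ± 0.11 summed, and that at day 5 was 0.21 ± 0.19 alone and 0.01 ± 0.11 summed. Without control replicate 1, mt-Co2 alone had 0.25 at day 1 and 0.03 at day 5.

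**Figure D1:**
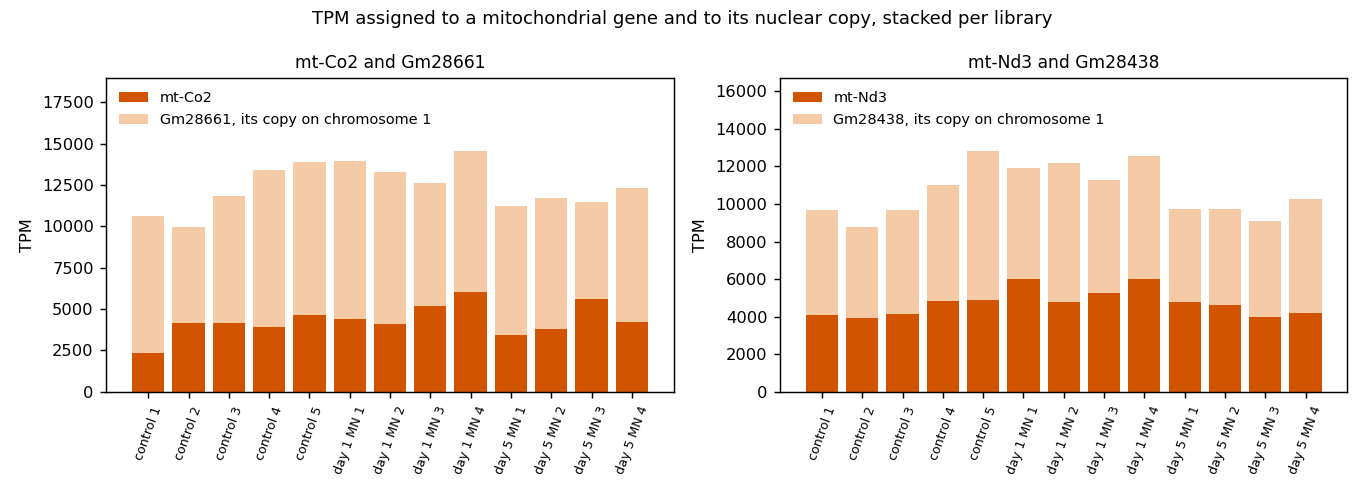
Stacked bars give TPM per library for mt-Co2 with Gm28661 (left) and mt-Nd3 with Gm28438 (right), for 5 control, 4 day 1 MN and 4 day 5 MN samples. The height of the whole bar is the sum used in the text, and in control replicate 1 mt-Co2 holds 2315 TPM of 10619.

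At day 1 of MN, the transcripts of both genomes lay slightly above control, and none passed the test. Of the 97 members, 0 were called (limma with Benjamini-Hochberg adjustment over all tested genes, adjusted p under 0.05 and absolute log2 fold change above 0.5), against 13 of 14322 genes (0.0908%). All fold changes were computed as differences of log2(scaled TPM + 0.5), which makes those of low genes too small. The smallest adjusted p among the members was 0.24. The log2 fold change was above 0 for 94 of 97 members, as it was for 49.2% of all genes, and 49 members had an unadjusted limma p under 0.05 in the higher direction, against 7.23% of all genes, while 0 had one in the lower direction, against 5.33%. The count of 49 depended on single libraries, at 17 without day 1 replicate 4, 19 without day 1 replicate 1, 22 without control replicate 2, 31 without control replicate 3 and 66 without control replicate 5. In these fits 4.89%, 4.41%, 5.27%, 6.05% and 8.99% of all genes were higher, in the same order. The median log2 fold change was 0.26 for the 13 mitochondrial members and 0.16 for the 84 nuclear members, beside 0.00 for all genes. With quantile normalization these medians were 0.12 and 0.14, so the order of the genomes turned. Levels in all 4 day 1 samples exceeded all 5 control samples for 3 members, all nuclear, where 0.908% of all genes did so.

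Summed over the 13 genes, mitochondrial TPM was 56786, 54915, 65133, 73222 and 71717 in control, 78403, 71841, 68125 and 83848 at day 1, and 62210, 65520, 64917 and 68600 at day 5. The groups overlapped, since control replicates 4 and 5 lay above day 1 replicate 3. Summed nuclear TPM was 29074, 26360, 28137, 28473 and 31157 in control, 31955, 30420, 28871 and 32905 at day 1, and 28913, 29506, 28743 and 29037 at day 5. Here too control replicate 5 reached the level of day 1, and the day 5 samples lay inside the control range. The ratio of mitochondrial to nuclear TPM was 2.24 ± 0.24 in control (SD, n = 5), 2.43 ± 0.09 at day 1 (SD, n = 4) and 2.25 ± 0.09 at day 5 (SD, n = 4), and it ran from 1.95 to 2.57 within control, which held every day 1 and day 5 value. The sums and the ratio leave out the copies on chromosome 1. With the listed TPM of the copies added, without weighting by transcript length, mitochondrial TPM was 93603 ± 13653 in control (SD, n = 5). It was 106728 ± 8239 at day 1 (SD, n = 4) and 91176 ± 4348 at day 5 (SD, n = 4). The day 5 mean then lay below that of control, and without the copies it lay above, at 65312 against 64354.5 TPM.

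**Figure D2:**
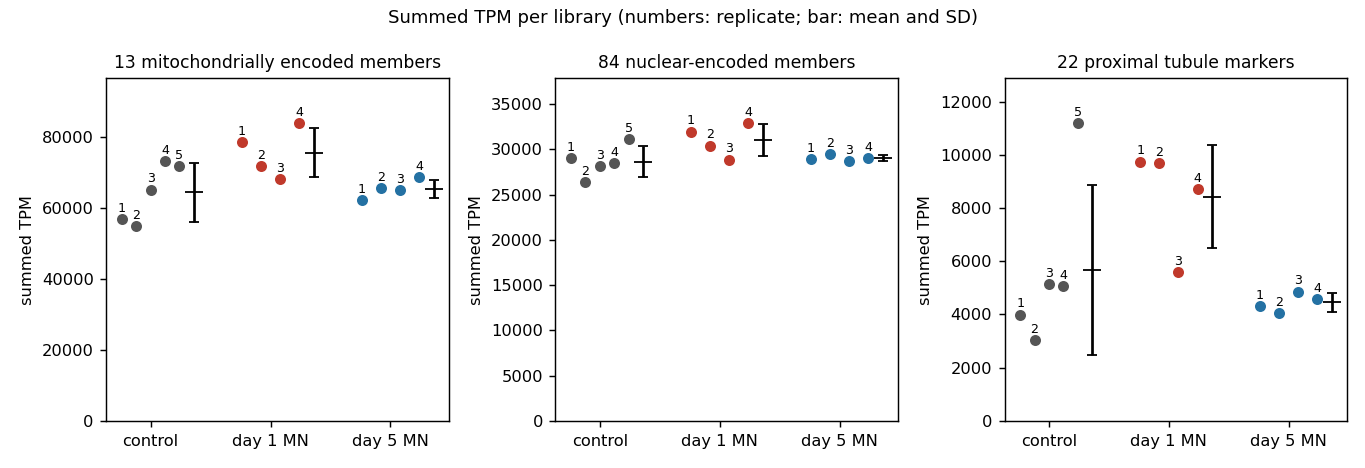
Each point is 1 library and the y axes give summed TPM of the 13 mitochondrial members, the 84 nuclear members and the 22 proximal tubule markers, with the mean and SD of each group beside the points. Control replicate 5, at 11191 TPM of tubule markers, also holds the highest nuclear sum among control samples.

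The levels of the tubular markers are given here beside those of the members. At day 1 all 22 proximal and all 13 tested distal markers had a log2 fold change above 0, with medians of 0.76 and 0.72, and 1 of them was called, Pvalb of the distal tubule (log2 fold change 1.43 ± 0.24, SE, adjusted p = 0.040 by limma), at 14.7 ± 4.0 TPM in control (SD, n = 5) and 39.1 ± 11.2 at day 1 (SD, n = 4). At day 5 the medians were -0.05 for both lists. Markers of other cells differed as well. Of 5 erythroid markers, 4 were lower than control at day 1 (median -0.78) and all 5 were higher at day 5 than at day 1 (median 1.09), with summed levels of 207 to 472 TPM in control, 91.5 to 282 at day 1 and 205 to 473 at day 5. Of 10 podocyte markers, 7 were lower at day 1 (median -0.10) and 5 at day 5 (median -0.09). Higher at day 5 were 8 of 9 endothelial (median 0.19), 6 of 7 mesangial (median 0.13) and 7 of 8 tested leukocyte markers (median 0.22). At day 1 these counts were 5, 3 and 6. Tagln of the mesangial list and Cdkn1c of the podocyte list were called higher at day 5. The part of these cells in the members' values was not tested, and a fit with a podocyte score is given below. Control replicate 5 was the highest control sample for 52 of 84 nuclear and 7 of 13 mitochondrial members, and control replicate 2, with the lowest tubular and podocyte sums of that group, was the lowest for 54 and 12. Over all genes, these samples were the highest and the lowest control for 16.8% and 20.1%. Day 1 replicate 3, the day 1 sample with the lowest tubular sum, was the lowest of its group for 62 nuclear and 10 mitochondrial members. Other samples did not follow the order of the proximal sum. Control replicate 4 had the highest mitochondrial sum in control at 5052 TPM of proximal markers. Day 1 replicate 4 had a lower proximal sum than day 1 replicates 1 and 2. It was the highest of its group for 48 nuclear and 12 mitochondrial members. By the summed distal markers, control replicate 4 (574 TPM) and day 1 replicate 4 (1014 TPM) were each the highest of their group. With the mean log2 level of the proximal markers as a covariate, the median day 1 log2 fold change was 0.06 for the mitochondrial and 0.04 for the nuclear members. In that fit 11 of 13 and 59 of 84 were above 0. An unadjusted limma p under 0.05 in the higher direction was found for 0 members, against 4.13% of all genes. Calls over all genes at day 1 went from 13 to 0 in that fit. With the distal markers, a choice made after seeing the data, the medians were -0.11 and 0.01. With the podocyte markers, chosen in the same way, they were 0.34 and 0.21. The tubular scores were themselves higher at day 1 than in control, so these fits cannot separate tubular RNA from an effect of day 1. The part of tubular RNA in the day 1 difference was not tested.

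**Figure D3:**
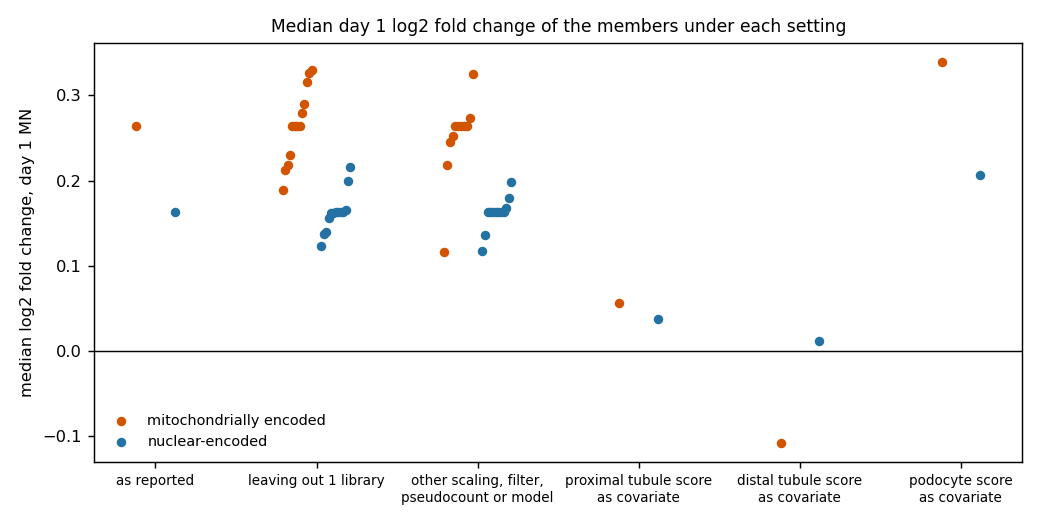
Each point is the median day 1 log2 fold change of the 13 mitochondrial (orange) or 84 nuclear (blue) members in 1 fit, with the fits grouped along the x axis. The medians as reported are 0.26 and 0.16, and those with a proximal tubule score in the model are 0.06 and 0.04.

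Among the 7 mitochondrial subunits of complex I, mt-Nd3 had the smallest p at day 1. Its TPM was 4090, 3940, 4126, 4852 and 4909 in control, 5995, 4787, 5243 and 6000 at day 1, and 4758, 4631, 4002 and 4213 at day 5. Only day 1 replicate 2 fell within the control range. The log2 fold change at day 1 was 0.37 ± 0.11 (SE), with a 95% confidence interval from 0.14 to 0.61 and a limma adjusted p of 0.24, and summed with its copy it was 0.26 ± 0.11 with an adjusted p of 0.38. The other 6 genes had day 1 log2 fold changes of 0.35 (mt-Nd2), 0.33 (mt-Nd1), 0.27 (mt-Nd5), 0.26 (mt-Nd4), 0.25 (mt-Nd4l) and 0.23 (mt-Nd6), each with an adjusted p between 0.31 and 0.57. Their SEs of 0.11 to 0.16 were larger than the gap between any neighbours in this order. At day 5 against control, all 7 lay between -0.01 and 0.13.

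Cytochrome b of complex III, mt-Cytb, stood at 5521 ± 850 TPM in control (SD, n = 5), 6330 ± 586 at day 1 (SD, n = 4) and 5405 ± 302 at day 5 (SD, n = 4), a day 1 log2 fold change of 0.25 ± 0.12 (SE). In complex IV, mt-Co1 was at 8680 ± 1121, 9867 ± 806 and 8837 ± 440 TPM and mt-Co3 at 7441 ± 923, 8357 ± 1061 and 7461 ± 535 TPM in the same order. Their day 1 log2 fold changes were 0.24 ± 0.11 and 0.21 ± 0.11 (SE). The ATP synthase gene mt-Atp6, part of the proton channel, was at 7877, 7586, 8739, 9977 and 9396 TPM in control, 10684, 10445, 9952 and 10785 at day 1, and 9427, 9560, 8559 and 8882 at day 5. Day 1 replicate 3 lay just under the highest control value, and the others lay above it. Its log2 fold change at day 1 was 0.32 ± 0.10 (SE, adjusted p = 0.25 by limma) and 0.23 ± 0.11 (SE) when summed with Gm10925. The small subunit mt-Atp8, at 1352 ± 201 TPM in control (SD, n = 5), had a day 1 log2 fold change of 0.22 ± 0.12 (SE).

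Among nuclear members, no complex stood out at day 1. The median log2 fold change was 0.14 for the 40 nuclear subunits and paralogs of complex I, 0.22 for the 4 of complex II, 0.17 for the 8 of complex III, 0.14 for the 15 of complex IV and 0.18 for the 17 of complex V. The 3 members without overlap between day 1 and control were named after their values were seen. They were Ndufb7 and Ndufa8, accessory subunits of complex I, and Atp5h, a stalk subunit of the ATP synthase. Ndufb7 was at 235, 219, 236, 241 and 237 TPM in control, 271, 252, 251 and 273 at day 1, and 251, 250, 230 and 249 at day 5. The lowest day 1 sample, at 251 TPM, lay above the highest control sample, at 241, with a log2 fold change of 0.21 ± 0.06 (SE, adjusted p = 0.24 by limma). Atp5h was at 587 to 614 TPM in control and 639 to 676 TPM at day 1, and Ndufa8 at 131 to 152 and 153 to 184 TPM.

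The largest nuclear log2 fold change at day 1 was that of Atp5g1, which encodes the c subunit of the rotor ring and was also named after its values were seen. Its TPM was 84.1, 70.6, 80.1, 92.5 and 118 in control, 130, 103.7, 101 and 124 at day 1, and 97.2, 95.2, 100.6 and 88.2 at day 5. Control replicate 5, with the highest proximal tubule sum, lay among the day 1 values. This gave a log2 fold change of 0.42 ± 0.14 (SE, adjusted p = 0.26 by limma). Without control replicate 5 it was 0.54 with an adjusted p of 0.022, so that Atp5g1 was called, and the calls over all genes went from 13 to 218. With the proximal tubule covariate it was 0.10 with a limma adjusted p of 0.82, in a fit with 0 calls over all genes. Gm10039, a copy that differs at 1 of 411 aligned bases, held 148 ± 23 TPM in control (SD, n = 5), more than Atp5g1 itself, and its own day 1 log2 fold change was 0.22 ± 0.14 (SE).

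By day 5, when the model has progressed, the members were close to control. Again 0 members were called, against 460 of all genes (3.21%), with a smallest adjusted p of 0.093. At an unadjusted limma p under 0.05, 6 members were higher, against 11% of all genes, and 1 was lower, against 9.06%. The log2 fold change was above 0 for 76 members, against 49.3% of all genes, with medians of 0.04 for the mitochondrial and 0.05 for the nuclear members. The count of 76 was 52 with quantile normalization, 63 without further scaling and 51 without control replicate 2, with nuclear medians of 0.01, 0.02 and 0.02. The 6 higher members at an unadjusted p under 0.05 became 19 without control replicate 5, 3 without control replicate 4, and 2 without control replicate 2 or day 5 replicate 1 or 2. In these fits 10.3%, 10%, 10.9%, 9.04% and 8.94% of all genes were higher, in the same order. The count of higher members was 16 with the proximal score, 16 with the distal score and 19 with the podocyte score as a covariate. Of all genes, 11.7%, 11.2% and 11.5% were higher in these fits. With the proximal score the day 5 medians were 0.05 for the mitochondrial and 0.06 for the nuclear members. The 95% confidence interval lay within 0.5 of 0 on the log2 scale for 93 of 97 members at day 5, and for 83 of 97 at day 1, where 4 of 13 mitochondrial intervals did. Among all 14322 genes it lay there for 8779 at day 5 and for 9344 at day 1. The median SE was 0.085 for the members and 0.116 for all genes. No member had all day 5 samples above all control samples, where 5.07% of all genes did, and 1 had all of them below, where 5.71% did.

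**Figure D4:**
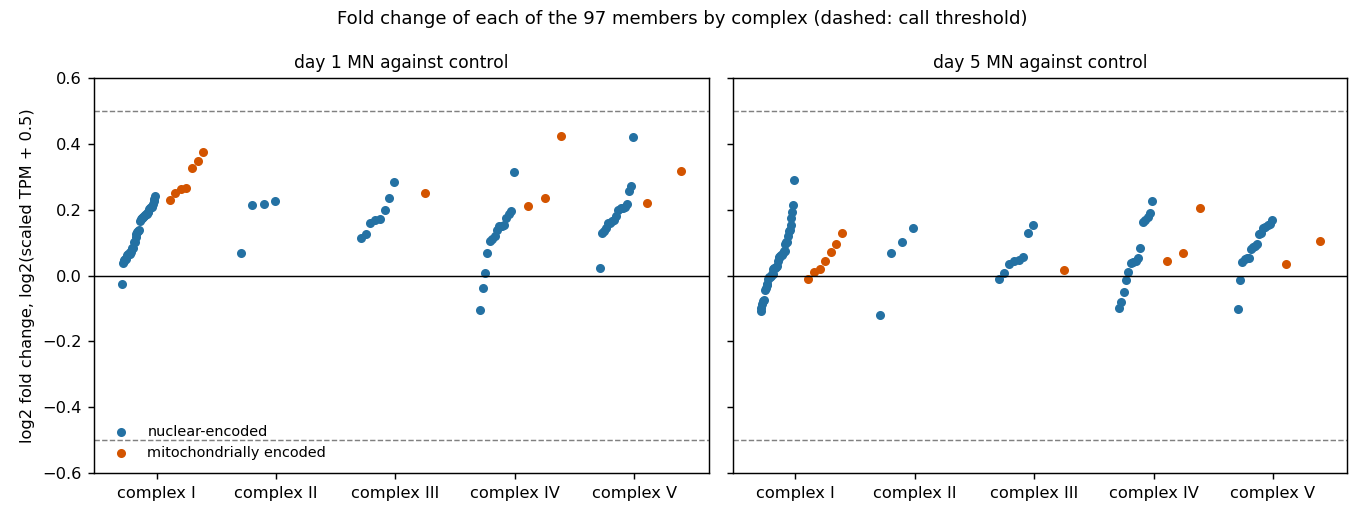
Each point is 1 of the 97 members, placed by complex, with its log2 fold change against control at day 1 (left) and day 5 (right). At day 1, 94 of 97 points lie above 0 and none crosses the dashed call threshold of 0.5, and at day 5 the medians are 0.04 and 0.05.

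In each complex the nuclear member with the highest and the lowest day 5 log2 fold change gives the range. In complex I, Ndufa4l2, a paralog of Ndufa4 known as a hypoxia-responsive gene that lowers respiratory activity, was highest. It was at 133, 123, 116, 109 and 102 TPM in control, 125, 99.4, 101 and 118 at day 1, and 119, 158, 146 and 134 at day 5. Day 5 replicates 2 to 4 lay above every control and day 1 sample, and replicate 1 lay among them. The log2 fold change at day 5 was 0.29 ± 0.09 (SE), with a 95% confidence interval from 0.09 to 0.50 and an adjusted p of 0.093 by limma. Against day 1 it was 0.32 ± 0.10 (SE) with an adjusted p of 0.13, while that at day 1 was -0.03 ± 0.09 (SE). Its sister Ndufa4, now counted as a complex IV subunit, was at 532 ± 66 TPM in control (SD, n = 5) and 542 ± 16 at day 5 (SD, n = 4). The lowest in complex I was Ndufb4, at 95.9 ± 10.6 and 86.6 ± 6.5 TPM, a log2 fold change of -0.11 ± 0.10 (SE). Ndufb4 has a near-identical copy, Ndufb4c, which also matched the pattern and held 465 ± 68 TPM in control.

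In complex II, Sdhc, which anchors the enzyme in the inner membrane, had the highest day 5 log2 fold change (0.15 ± 0.07, SE) and Sdha, the flavoprotein that oxidises succinate, the lowest (-0.12 ± 0.09, SE). Sdha was at 226 ± 28 TPM in control (SD, n = 5) and 202 ± 16 at day 5 (SD, n = 4), and Sdhc at 156 ± 10 and 168 ± 9. In complex III, the Rieske iron-sulfur protein Uqcrfs1 was highest (0.15 ± 0.11, SE) and Uqcr11, a small accessory subunit, lowest (-0.01 ± 0.07, SE). In complex V, Atp5e of the central stalk was highest, at 983, 813, 897, 889 and 865 TPM in control and 930, 1048, 950 and 970 at day 5, a log2 fold change of 0.17 ± 0.07 (SE). Atp5j, a coupling subunit of the peripheral stalk, was the one member with every day 5 sample below every control sample. It was at 459, 471, 443, 467 and 453 TPM in control, 466, 430, 442 and 468 at day 1, and 408, 413, 429 and 418 at day 5, a log2 fold change of -0.10 ± 0.04 (SE, adjusted p = 0.19 by limma).

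Complex IV uses tissue isoforms, and the glomerular samples carried the widely expressed ones at high levels. Cox4i1 stood at 715 ± 36 TPM in control (SD, n = 5), and the oxygen-responsive Cox4i2 at 19.7 ± 4.0. Cox4i2 had the highest day 5 log2 fold change of the complex, at 22.1, 17.1, 17.4, 25.6 and 16.3 TPM in control, 17.6, 18.7, 19.9 and 25.8 at day 1 and 19.8, 22.6, 26.9 and 20.4 at day 5, and the groups overlapped. Its log2 fold change was 0.23 ± 0.14 (SE, adjusted p = 0.42 by limma). The lowest was Cox7a1, the muscle-type partner of Cox7a2, at 18.6 ± 8.6 TPM in control (SD, n = 5) and 16.04 ± 4.39 at day 5 (SD, n = 4), a log2 fold change of -0.10 ± 0.31 (SE). Cox7a2 was at 364 ± 43 and 335 ± 15 TPM, and Cox7a2l, which helps complexes III and IV associate, at 229 ± 11 and 216 ± 17 TPM. Cox6b1 was at 484 ± 32 TPM in control (SD, n = 5), and its testis-type relative Cox6b2 at 22.3 ± 1.6. Cox6a2 reached 1 TPM in 2 libraries, and Cox8b and Cox8c in none.

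The nuclear members with the highest mean level were Atp5b (2564 TPM over the 13 libraries), the catalytic beta subunit of the ATP synthase, Cox8a (1268 TPM) and Cox6a1 (1205 TPM) of complex IV. Atp5b was at 2463 ± 130 TPM in control (SD, n = 5), 2761 ± 285 at day 1 (SD, n = 4) and 2493 ± 133 at day 5 (SD, n = 4). Cox8a was at 1253 ± 84, 1345 ± 74 and 1209 ± 11 TPM. Cox6a1 was at 1114, 1090, 1108, 1091 and 1264 TPM in control, 1289, 1227, 1159 and 1319 at day 1, and 1265, 1252, 1248 and 1238 at day 5. Apart from control replicate 5, every control sample lay under every MN sample. The log2 fold changes of Cox6a1 were 0.19 ± 0.07 at day 1 and 0.18 ± 0.07 at day 5 (SE), with limma adjusted p-values of 0.32 and 0.16. Without control replicate 5 the day 5 value was 0.23 with an adjusted p of 0.039 and stayed under the fold threshold. With all libraries and the proximal tubule covariate it was 0.18 with a limma adjusted p of 0.045, also under the fold threshold. Atpif1, the inhibitor that stops the ATP synthase from running backwards and lies outside the pattern, was at 366 ± 37 TPM in control (SD, n = 5), 393 ± 29 at day 1 (SD, n = 4) and 388 ± 18 at day 5 (SD, n = 4).

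**Figure D5:**
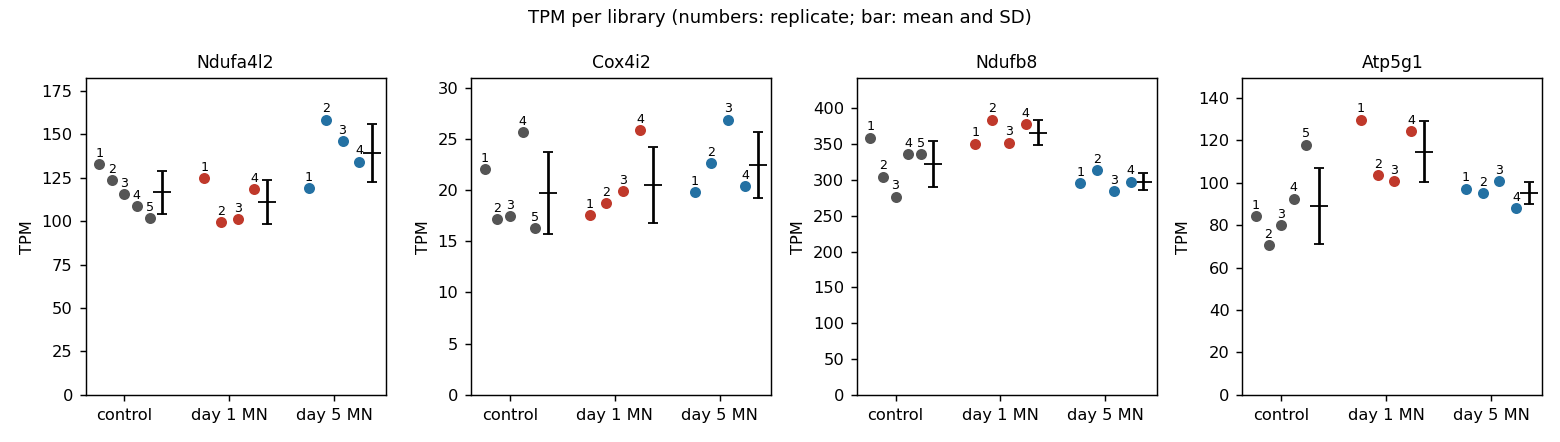
Points are TPM per library for Ndufa4l2, Cox4i2, Ndufb8 and Atp5g1, numbered by replicate, with the mean and SD of each group beside them. Ndufb8 at day 5 (285 to 313 TPM) lies under all day 1 samples (351 to 384 TPM), and the Cox4i2 groups overlap.

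Between the days, the members were lower at day 5 than at day 1, and none passed the test. The log2 fold change of day 5 against day 1 was above 0 for 6 of 97 members, against 51.3% of all genes, with medians of -0.21 for the mitochondrial and -0.10 for the nuclear members beside 0.00 for all genes. With quantile normalization these medians were -0.08 and -0.13, and their order turned. Called were 0 members, against 259 of all genes (1.81%). At an unadjusted limma p under 0.05, 12 were lower, 4 of them mitochondrial, against 7.72% of all genes, and 1 was higher, Ndufa4l2, against 7.83%. The count of 12 was 28 without day 1 replicate 3, 7 without day 1 replicate 4, 24 with quantile normalization, 33 with the podocyte score and 1 with either tubular score. In the first 4 of these fits 8.67%, 5.9%, 7.95% and 9.67% of all genes were lower, in the same order. With the proximal and the distal score it was 4.26% and 4.06% of all genes. All day 5 samples lay below all day 1 samples for 17 members, 4 of them mitochondrial, where 4.93% of all genes did so. The 22 proximal and 13 distal markers were all lower at day 5 than at day 1 as well, with a median of -0.83 in both lists, and with the proximal covariate the medians of the members were -0.004 and 0.03. The smallest p was that of Ndufb8, a complex I accessory subunit named after its values were seen. It was at 359, 305, 277, 336 and 336 TPM in control, 351, 384, 352 and 378 at day 1, and 295, 313, 285 and 298 at day 5. The day 5 samples lay below those of day 1 and inside the control range. Against day 1 it differed by a log2 fold change of -0.31 ± 0.08 (SE, adjusted p = 0.077 by limma). Of the mitochondrial genes, mt-Nd2 and mt-Nd3 had the lowest values, -0.36 ± 0.13 and -0.33 ± 0.11 (SE), with adjusted p-values of 0.20 and 0.17.

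Nuclear members are known targets of NRF1 and of ETS-family factors such as GABPA, which adjust them to demand, and YY1 sites are frequent at such promoters. RefSeq promoter windows (GRCm38.p6, 250 bases before to 50 after the start) were at hand for 67 of 84 nuclear members, in 72 windows. The NRF1 core GCGCATGCG or its reverse CGCATGCGC was in 8 of 72 windows (11.1%) and in 1.75% of all 32851. The ETS core CCGGAAGT or its reverse ACTTCCGG was in 5 (6.94%) and in 3.89% of all, and 1 window, that of Uqcr11, held both cores. The YY1 core AAGATGGCG or its reverse CGCCATCTT was in 7 (9.72%) and in 1.40% of all, whereas the TATA box TATAAA or its reverse TTTATA was in 7 (9.72%) and in 13.6% of all. Shown are 100 bases each from Cox6a1 (chr5:115349059-115349158, minus strand), a member with a high level and an NRF1 core starting 162 bases before the start, and from Atp5h (chr11:115419920-115420019, minus strand), a member whose day 1 and control samples did not overlap, with an ETS core 39 bases before it. Capitals mark the cores, and in Cox6a1 the core and its reverse overlap.
Cox6a1: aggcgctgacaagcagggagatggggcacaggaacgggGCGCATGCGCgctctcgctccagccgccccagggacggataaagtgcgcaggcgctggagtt
Atp5h: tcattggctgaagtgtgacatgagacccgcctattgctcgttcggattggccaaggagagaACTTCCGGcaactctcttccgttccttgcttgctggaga
A match describes letters in a window and was not tested as a site.

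The genes that serve the chain were read from fixed lists. Of 46 assembly factors, 35 had a day 1 log2 fold change above 0, with a median of 0.08, and 20 at day 5, with a median of -0.01. Of all genes, 49.2% and 49.3% were above 0. At an unadjusted limma p under 0.05, 4 were higher and 0 lower at day 1, beside 7.23% and 5.33% of all genes. At day 5, 3 were higher and 2 lower, beside 11% and 9.06%. None was called at day 1, beside 0.0908% of all genes. At day 5, when 3.21% of all genes were called, the 1 factor called was Sco2, a copper chaperone of complex IV. It was at 1.61, 0.22, 0.70, 1.85 and 0.32 TPM in control and 5.64, 1.301, 4.18 and 3.19 at day 5, a log2 fold change of 1.56 ± 0.42 (SE, adjusted p = 0.047 by limma) at levels near the filter of 1 TPM. Of 25 genes that copy, transcribe, process or translate mitochondrial DNA, 4 were above 0 at day 5, against 49.3% of all genes. Their median log2 fold change was -0.10. At an unadjusted limma p under 0.05, 0 were higher and 3 lower at day 5, beside 11% and 9.06% of all genes. Called at day 5 was 1 of the 25, beside 3.21% of all genes. In this list Fastkd2, an RNA-binding protein of mitochondrial RNA granules, was called lower at day 5, at 18.5, 23.3, 15.1, 17.3 and 18.5 TPM in control and 10.2, 9.19, 15.1 and 11.7 at day 5 (log2 fold change -0.64 ± 0.14, SE, adjusted p = 0.018 by limma). The lowest control and the highest day 5 sample both had 15.1 TPM. The mitochondrial transcription factor Tfam was at 44.8 ± 4.4 TPM in control (SD, n = 5) and 36.6 ± 8.5 at day 5 (SD, n = 4), and the RNA polymerase Polrmt at 26.8 ± 6.5 and 21.0 ± 5.2. Neither passed the test, with adjusted p-values of 0.35 and 0.40 by limma.

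Of 15 regulators of mitochondrial biogenesis, 10 had a day 1 log2 fold change above 0 and 2 at day 5, with a day 5 median of -0.18. Called were 0 in either comparison, beside 0.0908% of all genes at day 1 and 3.21% at day 5. At an unadjusted limma p under 0.05, 1 was higher and 2 were lower at day 1, beside 7.23% and 5.33% of all genes, and 0 were higher and 1 was lower at day 5, beside 11% and 9.06%. The coactivator Ppargc1a was at 2.90 ± 0.53 TPM in control (SD, n = 5), 3.95 ± 1.21 at day 1 (SD, n = 4) and 2.51 ± 0.92 at day 5 (SD, n = 4). Its partner receptor Esrra was at 47.8, 51.7, 46.3, 44.3 and 44.8 TPM in control, 61.1, 55.5, 50.5 and 50.2 at day 1, and 43.8, 42.4, 50.8 and 44.8 at day 5. Control replicate 2 lay above the lowest day 1 samples, and the day 1 log2 fold change was 0.25 ± 0.07 (SE, adjusted p = 0.22 by limma). Of 18 genes of the citric acid cycle, 17 were above 0 at day 1 (median 0.15) and 10 at day 5 (median 0.01). Of 80 tested mitochondrial ribosomal proteins, 60 and 50 were, with medians of 0.08 and 0.03. The 11 carriers, cytochromes and electron transfer genes that the pattern leaves out were all above 0 at day 1, with a median of 0.18, and had a median of 0.02 at day 5. In these 3 lists 0 genes were called at either day by limma, beside 0.0908% of all genes at day 1 and 3.21% at day 5. By list, the counts higher at an unadjusted limma p under 0.05 were 9, 9 and 6 at day 1, beside 7.23% of all genes. At day 5 the counts were 0, 10 and 1, beside 11% of all genes. In the lower direction they were 0, 1 and 0 at day 1 and 1, 3 and 1 at day 5.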

How the data were processed

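RNA of 13 glomerular samples was sequenced as paired-end reads. Per the labels and the methods, the authors checked and trimmed reads (FastQC 0.11.9, Trimmomatic 0.39) and quantified transcripts with kallisto 0.46.2 on GRCm39, and the deposited table holds TPM per gene symbol for 35967 symbols. TPM keeps no counts, so depth is unknown and no count test was run. Columns were scaled by median-of-ratios factors over 15772 genes above 0 in every library (factors 0.954 to 1.040), filtered at 1 TPM in 4 libraries and tested as log2(scaled TPM + 0.5) with limma 3.58.1 (R 4.3.3, trend, 1 fit of 3 groups), adjusted over 14322 genes. The script was tested on simulated data. Each limma p-value sets a group difference against the spread between samples within groups, with an estimate of that spread that draws on all genes. Copies were found with BLAST+ 2.17.0 among GENCODE transcripts (GRCm39, at least 95% identity, 95 of 97 members matched), and Gm10925 was matched to the GENCODE gene at the same distance, 1567 bases, from Gm10222. Promoters came from RefSeq, and motif letters were shortened to at most 9 after a first search. The named members were all mitochondrial ones, the extremes of each complex at day 5, isoform pairs, the 3 highest nuclear members and genes called in the lists. Other genes were named after their values were seen, where so stated. The replicate numbers did not pair samples. Members and lists were chosen with earlier results of these data known. Alternatives were other scalings, pseudocounts, filters, models, marker covariates and leaving out libraries.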

Additional observations from a re-analysis of the deposited data

Results flagged for a closer look

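In groups of 4 or 5 samples, 1 sample lay far from the others in 6 of 120 groups examined, which is the rate of about 1 in 20 that chance gives. Control replicate 5 had 11191 TPM of summed proximal tubule markers (others 3048 to 5147) and 1264 TPM of Cox6a1 (others 1090 to 1114). Control replicate 2 had 219 TPM of Ndufb7 (others 235 to 241). Day 1 replicate 4 had 406 TPM of Cox7a2 (others 369 to 373). Day 5 replicate 4 had 19.8 TPM of Cox6b2 (others 25.7 to 26.6), and day 5 replicate 3 had 230 TPM of Ndufb7 (others 249 to 251).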

How the results depend on the processing

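The counts of members called were 0 at day 5 and between the days in every setting run, and 0 at day 1 in all but 2: they ran from 0 to 1 when 1 library was left out, with Atp5g1 called without control replicate 5, and the replicate block gave 1 (Atp5g1, log2 fold change 0.54, limma adjusted p = 0.039). Samples with the same replicate number did not deviate together (correlations -0.06 to 0.09), so they share only a number. With the block, calls over all genes at day 1 went from 13 to 149. As replicate 5 exists in control alone, the block also takes that sample out of the contrast, and leaving it out alone gave 218, so the block is not a separate check. With the proximal tubule score the medians were 0.0562 (mitochondrial) and 0.0373 (nuclear) at day 1 and -0.00402 and 0.0255 at day 5 against day 1, and mt-Nd5 and mt-Nd6 at day 1 were -0.0523 and -0.0954. With the distal score, chosen after seeing the data, the medians were -0.108 and 0.0117 at day 1 and 0.214 and 0.0799 at day 5 against day 1. In that fit day 1 values were -0.12 (mt-Nd1), -0.0464 (mt-Nd2), -0.0937 (mt-Nd4), -0.11 (mt-Nd4l), -0.24 (mt-Nd5), -0.32 (mt-Nd6), -0.14 (mt-Cytb), -0.10 (mt-Co1), -0.14 (mt-Co3), -0.15 (mt-Atp8) and -0.0178 (Cox8a), Cox7a1 was 0.0202 at day 5 and mt-Nd2 0.0978 at day 5 against day 1. Uqcr11 and Cox7a1 at day 5 turned to 0.0298 and 0.106 under the replicate block, and ran from -0.0492 (without day 5 replicate 1) to 0.0521 (without day 5 replicate 3) and from -0.297 (without control replicate 2) to 0.105 (without control replicate 5) when 1 library was left out. Uqcr11 at day 5 was 0.00960 with the podocyte score and 0.00744 without control replicates 2 and 5, both added after seeing the data. Quantile normalization gave medians of 0.12 and 0.14 at day 1 and -0.08 and -0.13 at day 5 against day 1. Leaving out 1 library, the day 1 medians ran from 0.19 to 0.33 and from 0.12 to 0.22, and the mitochondrial day 5 median from -0.01 (without control replicate 2) to 0.10. The cause of these shifts was not tested. Ndufb8 at day 5 against day 1 had adjusted p-values of 0.024 with quantile normalization, 0.047 without further scaling, 0.042 with 2 groups in the fit, 0.049 without control replicate 3 and 0.043 with the podocyte score, and from 0.051 to 0.74 in the others, in each case under the fold threshold. Other members passed 0.05 in this comparison too. With the podocyte score 2 members did, the smaller limma adjusted p being 0.013. Without control replicates 2 and 5, 1 member did, at 0.031. In both settings 0 members were called. Depth is unknown, which limits what can be said of low genes.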
